A study of Mus musculus with 8 samples.

Results

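The amino acid genes described here are 33 mouse genes that supply amino acids for protein synthesis, chosen by name: 12 cytosolic aminoacyl-tRNA synthetases, 5 genes of serine, glycine and one-carbon synthesis, 6 other synthesis genes, 8 transporters, the translation repressor gene Eif4ebp1 and the tRNA exporter gene Xpot. Their 32 measured members were among 15203 genes kept on the arrays, and Pycr1, an enzyme of proline synthesis, had no probe that could be named. They were chosen by function, with earlier results of these data known. They were measured in RAW 264.7, a single macrophage-like line of BALB/c origin, after 6 h with *Lactobacillus acidophilus* (2 arrays), *Bacillus clausii* (3 arrays) or *Bifidobacterium bifidum* (3 arrays), each at a multiplicity of infection of 1. On each two-colour array, treated cells (Cy5) were set against time-matched untreated cells of the same line (Cy3). A log2 ratio of 0 therefore means equal brightness in treated and untreated cells. No array had the dyes swapped, so an effect of the dyes and one of the treatment cannot be told apart in a ratio against untreated cells. The submitters describe 3 biological replicates per condition, of which 2 with *L. acidophilus* are analysed here.

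Aminoacyl-tRNA synthetases join each amino acid to its tRNA before translation. Serine is built from a glycolytic intermediate by the enzymes encoded by Phgdh, Psat1 and Psph. In mitochondria the enzyme made from Shmt2 then splits it into glycine and a one-carbon unit, which the enzyme made from Mthfd2 oxidises. At the cell surface, the heavy chain Slc3a2 pairs with Slc7a5 to import large neutral amino acids and with Slc7a11 to exchange cystine for glutamate. Many of these genes are targets of ATF4, the transcription factor of the integrated stress response, which binds amino acid response elements in their promoters.

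Promoter sequence was at hand for 25 of the 33 genes, from the RefSeq table of mouse assembly GRCm38.p6, as 250 bases before and 50 after a transcription start. The core of the amino acid response element, spelled TGATGNAA and searched on both strands with no other motif, was present in 10 of the 25 (40.0%), against 4.51% of 27025 genes and 3.97% of 32851 promoters. The 10 genes were Aars, Gars, Iars, Tars and Yars among the synthetases, Asns, Pycr1 and Got1 among synthesis genes, and Slc7a11 and Slc1a4 among transporters. A match describes letters only, and no match says only that these letters are not in the window. The windows below are upstream of the start on the strand of the gene, with matches in capitals. They were picked to show the asparagine synthetase gene Asns, the pair of matches in Slc7a11, a gene that rose on slide 2 with both strains tested there (Got1), a synthetase gene (Tars), and Psph, a gene that rose with *B. clausii* and has no match.
Asns (chr6:7693210-7693262, minus strand): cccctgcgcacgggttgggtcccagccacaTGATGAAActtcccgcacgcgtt
Slc7a11 (chr3:50443623-50443709, minus strand): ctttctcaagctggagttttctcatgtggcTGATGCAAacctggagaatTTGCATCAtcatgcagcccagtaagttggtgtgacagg
Got1 (chr19:43524670-43524737, minus strand): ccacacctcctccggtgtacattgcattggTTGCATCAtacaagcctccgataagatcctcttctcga
Tars (chr15:11399659-11399703, minus strand): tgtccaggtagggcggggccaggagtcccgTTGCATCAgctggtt
Psph (chr5:129787254-129787353, minus strand): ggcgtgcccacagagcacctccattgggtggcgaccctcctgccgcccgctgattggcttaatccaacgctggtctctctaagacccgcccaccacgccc

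The arrays lay on 2 slides. Both *L. acidophilus* arrays and replicate 3 of the other strains were on slide 1, and the first 2 replicates of *B. clausii* and *B. bifidum* were on slide 2. Over bright genes, which are not independent, the log2 ratios of a strain gave r = 0.953 to 0.982 within slide 2 and −0.03 to 0.04 across slides. Arrays of different strains gave 0.463 to 0.478 within slide 2. Within slide 1 they gave 0.547 to 0.761, near the 0.78 between the 2 *L. acidophilus* arrays. *B. clausii* replicate 3 had 12543 probes above background, against 21508 to 26473 on the other arrays. Its repeated spots varied by 72.5% (Cy5) and 67.4% (Cy3). For these reasons each result over 8 arrays is followed by values within slides. No spot of the 32 genes was saturated.

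**Figure D1:**
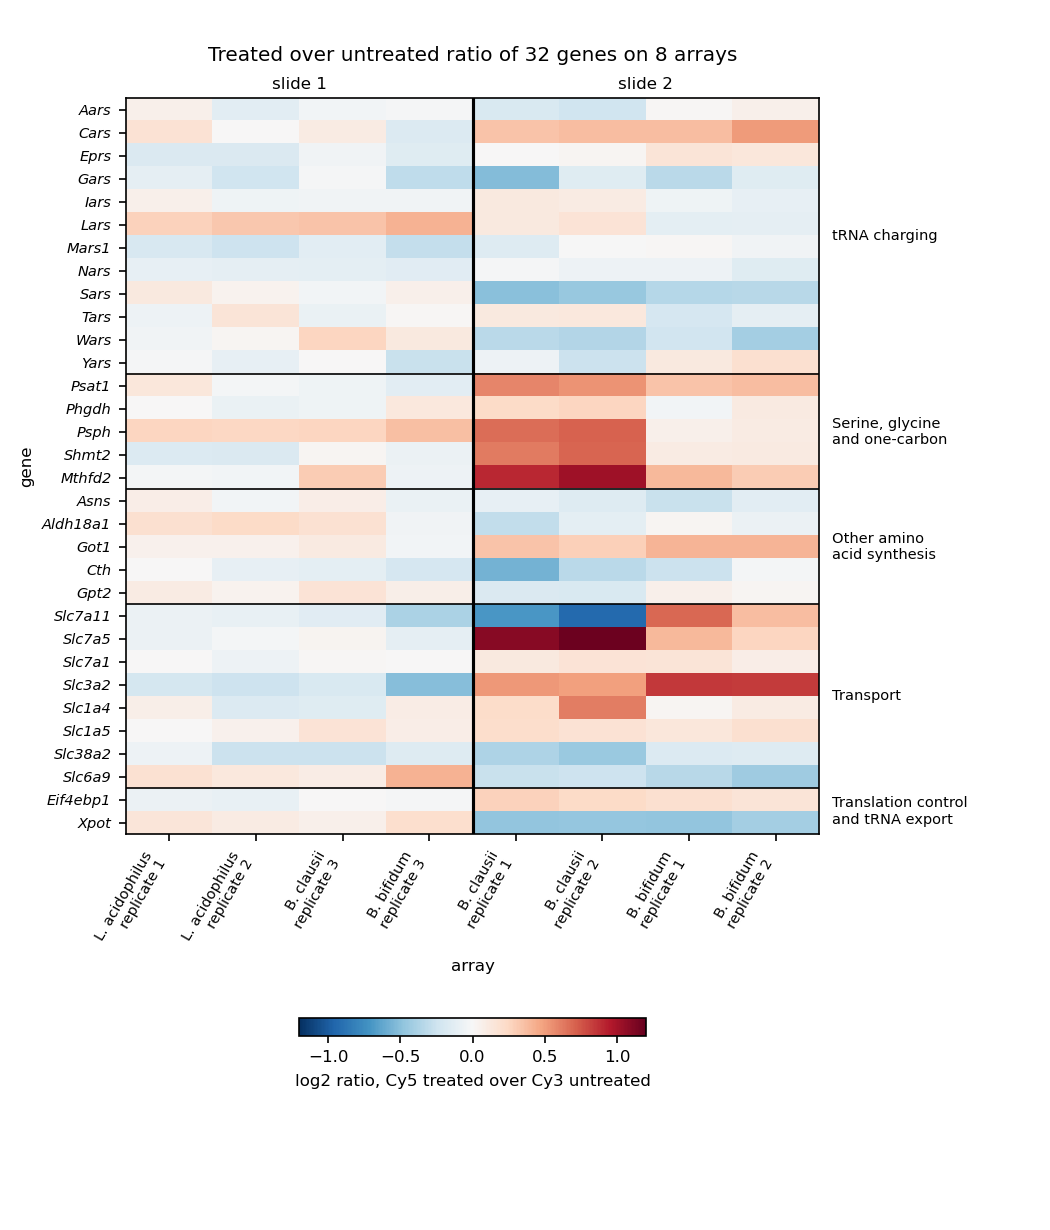
Colour gives the log2 ratio of treated (Cy5) over untreated (Cy3) cells for 32 genes (rows, by role) on 8 arrays (columns, by slide). The deepest red squares are Slc7a5 and Mthfd2 on the 2 *B. clausii* arrays of slide 2, and Slc7a11 is blue there and red on the 2 *B. bifidum* arrays of slide 2; under median centring Slc7a11 in *B. bifidum* is −0.04, where all genes have a median of −0.42.

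With *B. clausii*, 2 of the 5 serine and one-carbon genes rose, and the glutamine and alanine transporter gene Slc38a2 fell. Over all 8 arrays Mthfd2 rose by a log2 ratio of 0.74 ± 0.14 (SE, n = 3, limma adjusted p = 0.0386), or 1.67-fold, and Psph, the last enzyme of serine synthesis, by 0.55 ± 0.10 (SE, n = 3, limma adjusted p = 0.0375), or 1.46-fold. Slc38a2 fell by 0.36 ± 0.07 (SE, n = 3, limma adjusted p = 0.0397). These were 2 rises (background 2.17% of all genes) and 1 fall (2.62%) among 32, with 29 that did not pass, and limma called 4.8% of all genes in either direction. The median of the 32 log2 ratios was 0.024, against −0.007 over all genes. Without either *L. acidophilus* array or replicate 1 or 2 of *B. bifidum* the 3 log2 ratios were the same, and the calls were lost (limma adjusted p = 0.0732 to 0.095). Without *B. clausii* replicate 1 or 2 the ratio of Mthfd2 was 0.66 or 0.60, and the 3 calls were lost too (limma adjusted p = 0.338 and 0.329). Without *B. clausii* replicate 3, 9 genes rose (background 15.8%) and 7 fell (20.2%), and without *B. bifidum* replicate 3, 3 rose (4.69%) and 2 fell (6.53%). With median centring of each array none of the 32 passed (limma, 12 at an unadjusted p under 0.05), and Mthfd2, Psph and Slc38a2 had 0.35, 0.04 and −0.83, where the median of all genes was −0.22. From the authors' deposited table none of the 32 passed either (limma, 12 at an unadjusted p under 0.05), where 0.467% of all genes passed. With the slide in the model, 8 rose (background 10.7%) and 4 fell (14.5%), the 3 calls above among them.

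Within slide 2, where *B. clausii* had 2 arrays, 14 of the 32 genes rose (25.7% of all genes rose), 11 fell (30.3%) and 7 did not pass, and the median log2 ratio was 0.061. Over all genes 55.9% were called there. Directions on slide 2 depend on how an array is centred. Centring each array on its median in place of the brightness-dependent loess curve put all genes at a median of −0.30 and the 32 genes at −0.57, and 0 rose (0.329% of all genes) and 13 fell (26%). In the authors' deposited values 8 rose (16.2%) and 4 fell (18.4%).

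All 5 serine and one-carbon genes rose on slide 2 with *B. clausii*. Under median centring none of the 5 passed: Mthfd2 had 0.44 (limma adjusted p = 0.18), Psph 0.002 (limma adjusted p = 0.997), and Psat1, Phgdh and Shmt2 were between −0.36 and −0.02, where all genes had a median of −0.30. Mthfd2 had log2 ratios of 0.91 and 1.02 on slide 2 and 0.30 on replicate 3. Mthfd2 was thus above 0 on all 3 arrays and highest on slide 2, where it rose by 0.96 ± 0.05 (SE, n = 2, limma adjusted p = 0.000169), or 1.95-fold. Psph had 0.67, 0.71 and 0.26, also above 0 on every *B. clausii* array. The other arrays of slide 1 had similar values of Psph, with 0.26 and 0.25 for *L. acidophilus* and 0.36 for *B. bifidum*. On slide 1 the ratio of Psph therefore did not set *B. clausii* apart from the other strains.

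Shmt2, the mitochondrial serine hydroxymethyltransferase gene, had log2 ratios of 0.62 and 0.70 on slide 2 and 0.02 on replicate 3 (slide 2 mean 0.66 ± 0.04, SE, n = 2, limma adjusted p = 0.000275). Psat1, the transaminase gene of serine synthesis, had 0.59, 0.54 and −0.05. Both were near 0 on the slide 1 array and well above 0 on slide 2. Phgdh, the first enzyme of the pathway, had 0.23, 0.26 and −0.05, the smallest slide 2 values of the 5.

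Of the 8 transporters, 5 rose and 3 fell on slide 2 with *B. clausii*, and 1 fell over 8 arrays. Slc7a5 had log2 ratios of 1.10 and 1.17 on slide 2 and 0.03 on replicate 3. Its slide 2 mean of 1.13 ± 0.05 (SE, n = 2, limma adjusted p = 0.000137), or 2.20-fold, ranked 41 of 15203 genes and was 0.46 under median centring. Over 8 arrays its mean was 0.77 ± 0.20 (SE, n = 3, limma adjusted p = 0.0563). The ratio of Slc7a5 was thus far from 0 on slide 2 and near 0 on slide 1. Its partner Slc3a2 had 0.52, 0.49 and −0.19, and its slide 2 mean of 0.50 ± 0.04 (SE, n = 2, limma adjusted p = 0.000483) became −0.14 under median centring. The dimmer of its 2 probes had −0.05.

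Slc7a11, the cystine carrier, had log2 ratios of −0.70, −0.94 and −0.14 with *B. clausii*, below 0 on all 3 arrays. It fell on slide 2 by 0.82 ± 0.10 (SE, n = 2, limma adjusted p = 0.00142), or 1.76-fold, and all 3 of its probes were below 0 there. Slc38a2 had −0.37, −0.45 and −0.26, likewise below 0 on every array. A second probe of the gene had 0.17 and 0.17 on slide 2 and −0.20 on replicate 3. With the mean of both probes the call over 8 arrays was lost. Slc6a9, a glycine transporter gene, fell on slide 2 with values of −0.27 and −0.25 and had 0.09 on replicate 3. Slc1a4, Slc1a5 and Slc7a1, which carry neutral or cationic amino acids, rose there by 0.42, 0.19 and 0.14, and under median centring Slc1a5 and Slc7a1 had −0.48 and −0.52.

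Among the 5 other synthesis genes measured, 1 rose and 3 fell on slide 2 with *B. clausii*. Got1, the cytosolic aspartate aminotransferase gene, had log2 ratios of 0.34, 0.29 and 0.11, above 0 on all 3 arrays, and −0.37 under median centring on slide 2. Cth, which makes cysteine from cystathionine, had −0.57, −0.33 and −0.12, below 0 on all 3. Its slide 2 mean was −0.45 ± 0.08 (SE, n = 2, limma adjusted p = 0.00768). Aldh18a1, an enzyme gene of proline synthesis, fell by 0.20 on slide 2 and was 0.09 in the authors' deposited value table there. Gpt2, an alanine aminotransferase gene, fell by 0.18. Asns, a widely used readout of ATF4, had −0.10, −0.15 and 0.08 and did not pass.

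Of the 12 synthetases, 2 rose, 4 fell and 6 did not pass on slide 2 with *B. clausii*, with a median log2 ratio of −0.058. Sars, which charges serine tRNA, had log2 ratios of −0.50, −0.45 and −0.03, so that only the slide 2 arrays were low. Cars, for cysteine, had 0.35, 0.37 and 0.10, and its slide 2 mean of 0.36 turned to −0.33 under median centring and −0.02 with the mean of its probes. Wars, for tryptophan, had −0.32, −0.35 and 0.26, and Gars, for glycine, had −0.52, −0.15 and −0.02. Both therefore fell on slide 2, with arrays of Gars far apart. Aars fell by 0.21 and Lars rose by 0.14 (−0.49 under median centring), and the other 6 synthetases had slide 2 means between −0.16 and 0.12.

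Xpot, which carries tRNAs out of the nucleus, fell on slide 2 with log2 ratios of −0.48 and −0.47 and had 0.06 on replicate 3. Its second probe had 0.51 and 0.58 on slide 2, so the direction of Xpot depends on the probe. Eif4ebp1, whose product holds back cap-dependent translation, had 0.28, 0.23 and 0.00. It rose on slide 2 by 0.26 ± 0.04 (SE, n = 2, limma adjusted p = 0.00527), which became −0.36 under median centring.

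**Figure D2:**
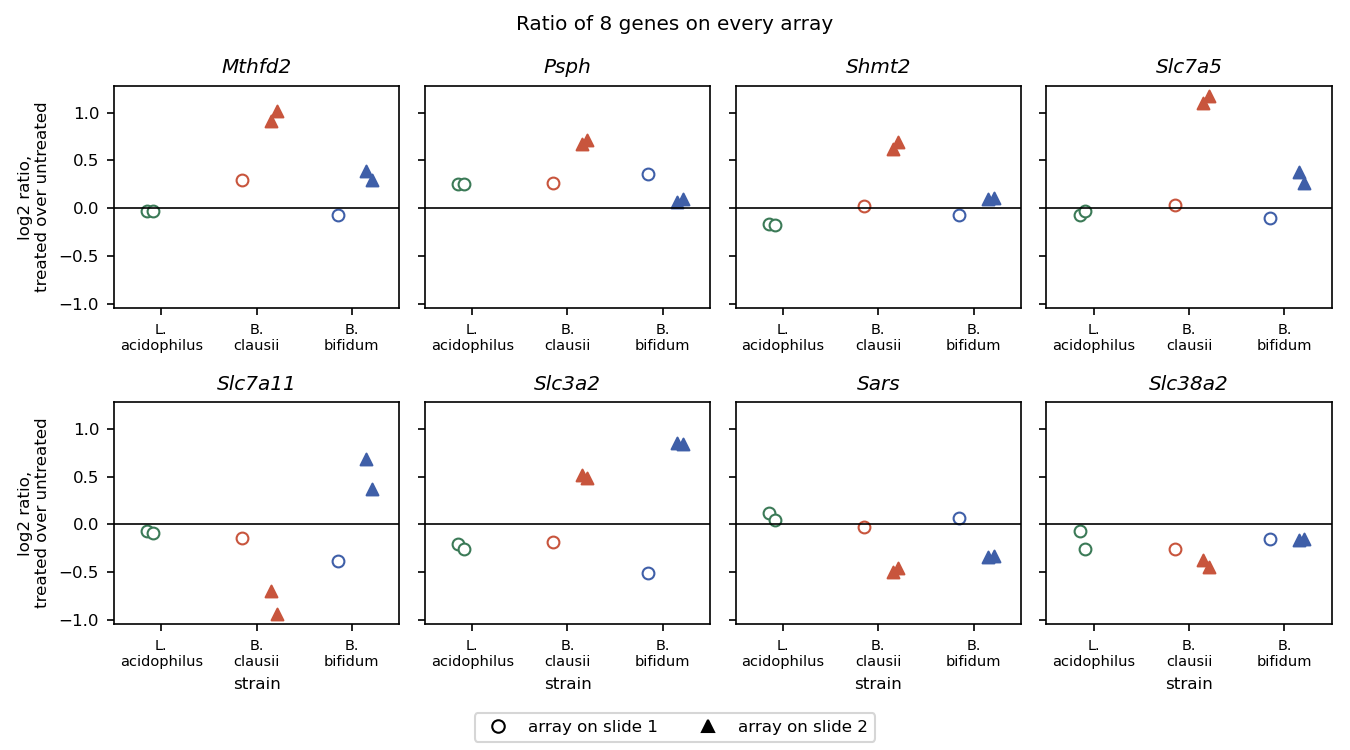
Each panel gives the log2 ratio of treated over untreated cells for one gene on every array, by strain, with open circles for slide 1 and filled triangles for slide 2. Mthfd2, Shmt2 and Slc7a5 are highest on the *B. clausii* arrays of slide 2, and the slide 1 arrays range from −0.51 to 0.36 over the 8 panels; under median centring the slide 2 means of Shmt2 and Slc3a2 with *B. clausii* are −0.02 and −0.14, where all genes have a median of −0.30.

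With *B. bifidum*, none of the 32 genes passed over all 8 arrays (limma, 2 at an unadjusted p under 0.05, namely Gars and Got1), where 1.72% of all genes passed. The median log2 ratio was 0.047, against −0.0135 over all genes. With the slide in the model Got1 rose by 0.21 ± 0.06 (SE, n = 3, limma adjusted p = 0.0421), against 4% of all genes that rose. Without *B. bifidum* replicate 3, 3 genes rose (background 4.24%) and 1 fell (9.54%). Within slide 2, 10 of the 32 rose (background 15.1%), 7 fell (23.6%) and 15 did not pass. Under median centring all genes had a median of −0.42 there and the 32 genes −0.75, with 0 rises (0.0658% of all genes) and 21 falls (36.5%). The authors' deposited table gave 2 rises (9.34%) and 0 falls (9.89%).

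Both partners of the cystine exchanger were higher with *B. bifidum* on slide 2 and lower on slide 1. Slc3a2 had log2 ratios of 0.85 and 0.84 on slide 2 and −0.51 on replicate 3. Its slide 2 mean was 0.85 ± 0.04 (SE, n = 2, limma adjusted p = 0.000394), or 1.80-fold, rank 38 of 15203 genes, and was −0.12 under median centring. The dimmer probe of Slc3a2 had a mean of 0.08 there, and the mean of its probes was 0.47, so most of that value rests on the brightest probe. Slc7a11 had 0.69 and 0.37 on slide 2 and −0.38 on replicate 3. Its slide 2 mean was 0.53 ± 0.10 (SE, n = 2, limma adjusted p = 0.00932), and −0.04 under median centring. The 2 dimmer probes of Slc7a11 had means between 0.04 and 0.07 there, so most of that value rests on the brightest probe. Slc7a5 rose by 0.32 on slide 2, from 0.38 and 0.26, and had −0.11 on replicate 3 and −0.44 under median centring on slide 2.

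Of the other genes that rose with *B. bifidum* on slide 2, Cars had log2 ratios of 0.37 and 0.51, Got1 0.41 and 0.41, and Psat1 0.34 and 0.37. On replicate 3 these genes had −0.16, −0.03 and −0.13, so none of the 3 was above 0 on slide 1. Under median centring their slide 2 means were −0.45, −0.48 and −0.56. Mthfd2 had 0.39, 0.30 and −0.07, and its slide 2 mean of 0.34 was −0.27 under median centring. Phgdh, Psph and Shmt2 had slide 2 means of 0.04, 0.08 and 0.11 and did not pass. For Phgdh that holds for the brightest probe only, since the 2 dimmer probes had means of 0.23 and 0.37 there. With the mean of its probes Phgdh rose by 0.21 (limma adjusted p = 0.0184), and under median centring it had −0.96.

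Among the falls with *B. bifidum*, Xpot had log2 ratios of −0.48 and −0.41 on slide 2 and 0.20 on replicate 3, with a second probe at 0.44 and 0.19 on slide 2. Slc6a9 had −0.33 and −0.42 on slide 2 and 0.41 on replicate 3, and Sars had −0.34, −0.33 and 0.06. Each of these genes was below 0 on slide 2 and above 0 on slide 1. Wars had −0.23, −0.41 and 0.12. Gars, at −0.32, −0.15 and −0.30, was below 0 on all 3 arrays and did not pass on slide 2. Asns, Tars and Slc38a2 also fell on slide 2, by 0.20, 0.16 and 0.16. Eprs, Slc1a5 and Eif4ebp1 rose there by 0.14, 0.16 and 0.17 and had −0.78, −0.72 and −0.81 under median centring. The 15 genes that did not pass had slide 2 means between −0.23 and 0.16.

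**Figure D3:**
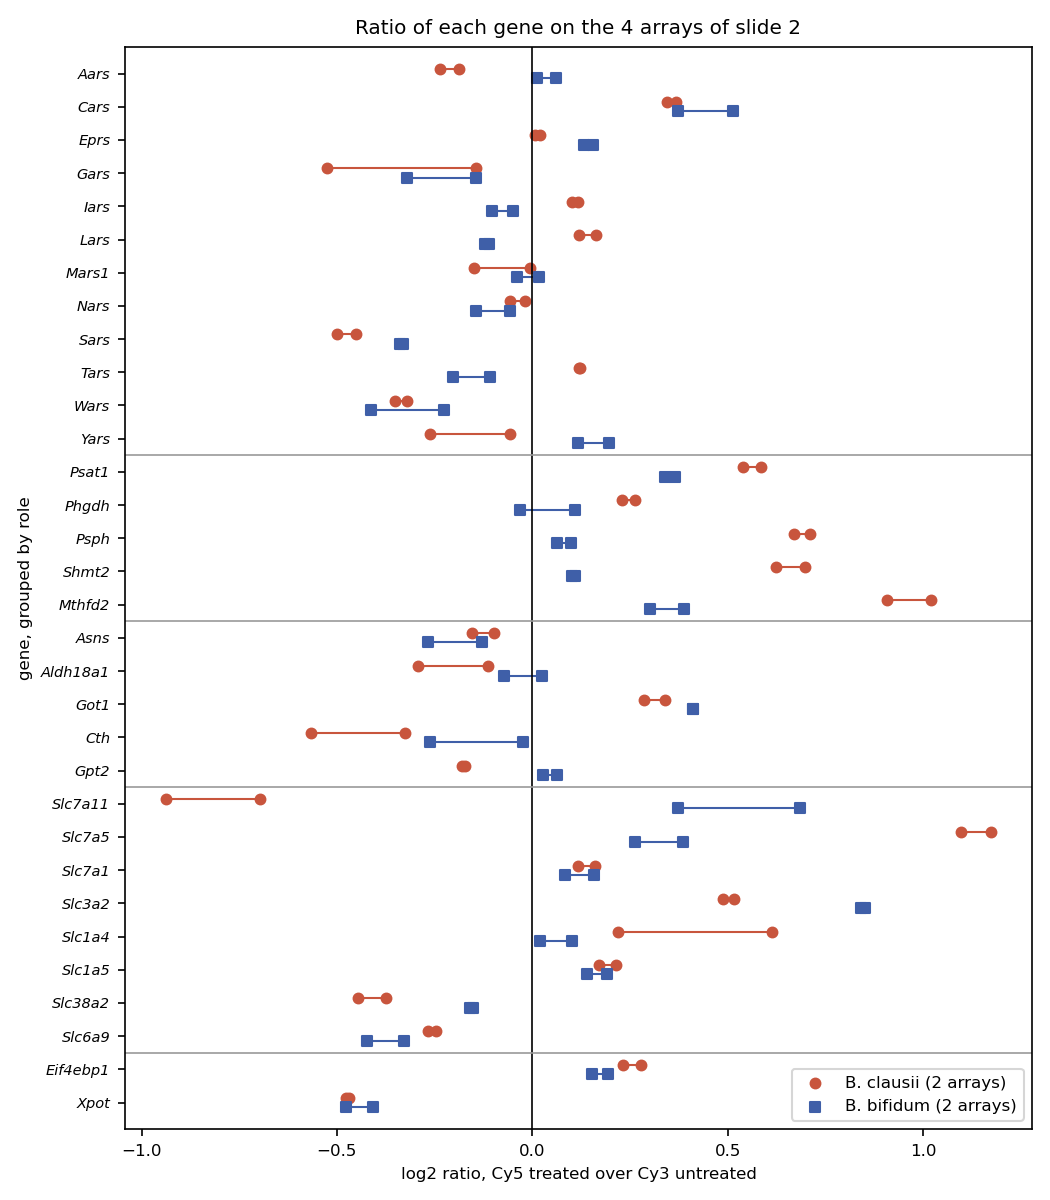
Points give the log2 ratio of treated over untreated cells for 32 genes on the arrays of slide 2, 2 for *B. clausii* (circles) and 2 for *B. bifidum* (squares), with a line joining the 2 arrays of a strain. The strains lie farthest apart at Slc7a11 (−0.70 and −0.94 against 0.69 and 0.37), and under median centring the means of all 32 genes shift down, to a median of −0.57 (*B. clausii*) and −0.75 (*B. bifidum*).

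The direct comparison of *B. clausii* with *B. bifidum* asked whether the strains differed from each other. A dye effect shared by all arrays cancels in it. Over 8 arrays none of the 32 genes passed (limma, 4 at an unadjusted p under 0.05: Psph, Shmt2, Mthfd2 and Slc7a11), where 0.0263% of all genes passed. With the slide in the model Mthfd2 was higher with *B. clausii* by 0.54 ± 0.08 (SE, n = 3 per strain, limma adjusted p = 0.0401), against 0.967% of all genes that were higher. Without *B. clausii* replicate 3, 4 genes were higher (background 6.26%) and 1 was lower (7.76%).

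Within slide 2, 6 of the 32 genes were higher with *B. clausii* (background 14.9%) and 6 were lower (14.7%). Slc7a11 was lower, with a difference of −1.34 ± 0.13 on the log2 scale (SE, n = 2 per strain, limma adjusted p = 0.00238), or 2.54-fold. It had the same sign without background correction (−1.49), with median centring (−1.18), in the authors' deposited values (−1.92) and with the mean of its probes (−0.77). Slc7a5 was higher by 0.81 ± 0.07 (limma adjusted p = 0.00196), Mthfd2 by 0.62 ± 0.07, Psph by 0.61 ± 0.06 and Shmt2 by 0.55 ± 0.06 (SE, n = 2 per strain), and these 4 also kept their sign under median centring (0.71 to 0.90). Slc3a2 had a difference of −0.34 ± 0.06. Lars and Tars were higher by 0.26 and 0.28, and Aars, Yars, Gpt2 and Slc38a2 were lower, with −0.25, −0.32, −0.22 and −0.25. Aars and Slc38a2 turned to 0.12 and 0.08 under median centring, and Tars and Slc38a2 to −0.06 and 0.29 with the mean of their probes. None of the 32 passed with median centring or from the authors' deposited value table on slide 2 (limma, 4 and 7 at an unadjusted p under 0.05).

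On slide 1, where these strains had 1 array each, *B. clausii* replicate 3 minus *B. bifidum* replicate 3 could be read only as values. Mthfd2 had 0.30 against −0.07, and Slc7a11 −0.14 against −0.38. The order for Mthfd2 was that of slide 2 and the order for Slc7a11 was the opposite.

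With *L. acidophilus*, none of the 32 genes passed (limma, 2 at an unadjusted p under 0.05), and 0% of all genes passed, with 1105 of them at an unadjusted p under 0.05. The median log2 ratio was −0.029, against 0.009 over all genes, and all means lay between −0.23 and 0.30. Lars, which charges leucine tRNA, had 0.28 and 0.33, and its 2 dimmer probes had means of −0.15 and −0.24. Mars1, for methionine, had −0.19 and −0.25 (mean −0.22 ± 0.09, SE, n = 2, limma adjusted p = 0.683), and its dimmer probe had a mean of 0.11. Slc3a2 had −0.21 and −0.25, and its dimmer probe had a mean of 0.08. Mthfd2, at −0.02 and −0.03, and Slc7a5, at −0.07 and −0.02, lay close to 0. For Lars, Mars1 and Slc3a2 the other arrays of slide 1 had the same signs. *B. clausii* replicate 3 had 0.34, −0.12 and −0.19, and *B. bifidum* replicate 3 had 0.42, −0.29 and −0.51. Within slide 1 none of the 32 passed with *L. acidophilus* (limma, 9 at an unadjusted p under 0.05).

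Brightness of the untreated channel differed between the slides for 11 of the 32 genes. The Cy3 channel, compared as log2 brightness with 4 arrays per slide, was higher on slide 2 for 8 of the 32 genes (background 16.4%) and lower for 3 (10.6%). The median difference was 0.27, against 0.086 over all genes. Slide, scan and the state of the untreated cells cannot be told apart in it.

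Slc7a11 had log2 brightness of 10.3, 10.3, 10.1 and 10.5 in the untreated channel of slide 1 and 8.74, 8.75, 8.64 and 8.80 on slide 2. The slides did not overlap, and Slc7a11 was lower on slide 2, with a difference of −1.57 ± 0.11 (SE, n = 4 per slide, limma adjusted p = 4.4e-05), or 2.97-fold. Slc7a5 had 9.06, 9.03, 7.98 and 8.93 on slide 1 and 10.2 on all 4 arrays of slide 2, and was higher there by 1.48 ± 0.24 (SE, n = 4 per slide, limma adjusted p = 0.0027). Slc6a9 was higher by 1.66 ± 0.13 (SE, n = 4 per slide, limma adjusted p = 6.94e-05). The Cy3 brightness that the ratios of these 3 transporters are taken against thus differed between the slides. Got1, Shmt2, Lars, Slc7a1, Cars and Aars, higher on slide 2 by 0.36 to 1.07, and Cth and Eif4ebp1, lower with −1.11 and −1.04, made up the other calls.

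The count of genes higher on slide 2 was 14 without *B. clausii* replicate 3 and 2 when the Cy3 channel was centred on its median in place of quantiles. It was 5 without either *L. acidophilus* array and 4 without *B. clausii* replicate 1, *B. clausii* replicate 2 or *B. bifidum* replicate 1. The shares of all genes called in these settings are not given here. Whether the count moved more than that of all genes therefore cannot be told. Mthfd2 and Psph, the genes that rose with *B. clausii* over 8 arrays, differed by −0.20 ± 0.21 and 0.28 ± 0.32 between slides (SE, n = 4 per slide) and did not pass.

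**Figure D4:**
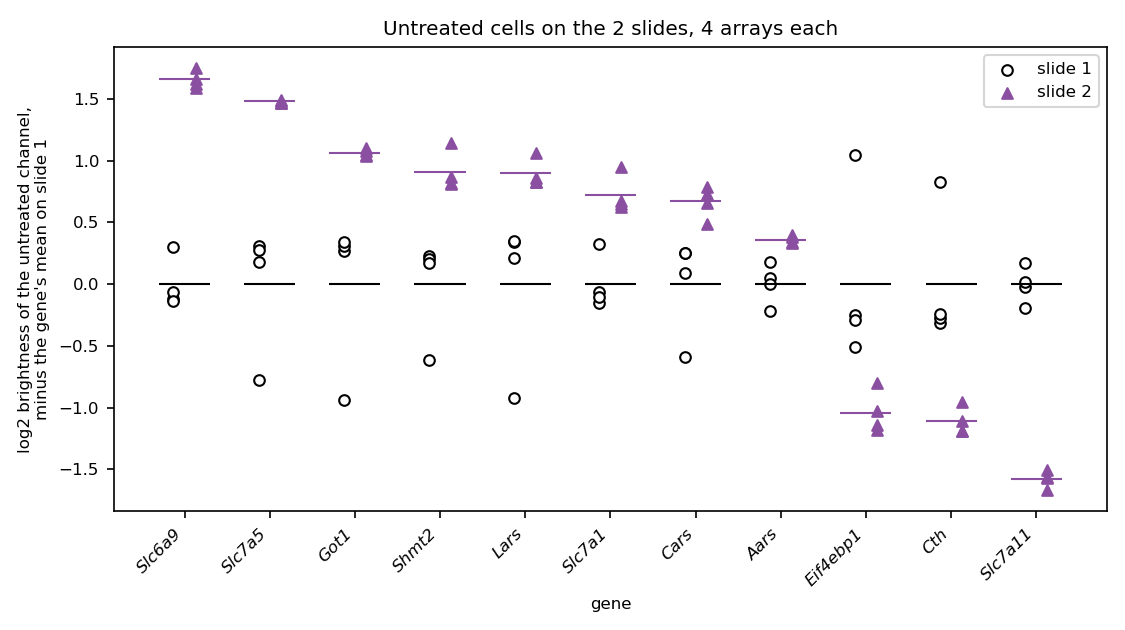
Points give the log2 brightness of the untreated (Cy3) channel for the 11 genes that differed between slides, minus the mean of the gene on slide 1, with 4 arrays per slide and lines at the means. Slc6a9 and Slc7a5 are highest and Slc7a11 lowest on slide 2, with no overlap of the slides for any of the 11 genes.

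Several genes were measured by more than 1 probe, and the probes did not always have the same sign. With *B. clausii* on slide 2, Cars, Eprs, Slc38a2, Slc3a2, Tars, Wars and Xpot had probes of both signs that lay over 0.3 apart, and with *B. bifidum* Cars, Eprs, Lars and Xpot did. For Lars, the dimmest of 3 probes had log2 ratios of 1.08 and 1.04 with *B. clausii* and −1.24 and −1.32 with *B. bifidum* on slide 2, while the brightest had 0.12 and 0.16 against −0.12 and −0.11. On slide 1 that dimmest probe lay between −0.27 and 0.21. For Eprs, which charges glutamate and proline tRNAs, the brightest probe rose with *B. bifidum* to 0.14 on slide 2, while the 2 dimmest had −0.96 and −0.99. Values in other paragraphs are from the brightest probe of a gene, so directions of these genes hold for that probe.

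**Figure D5:**
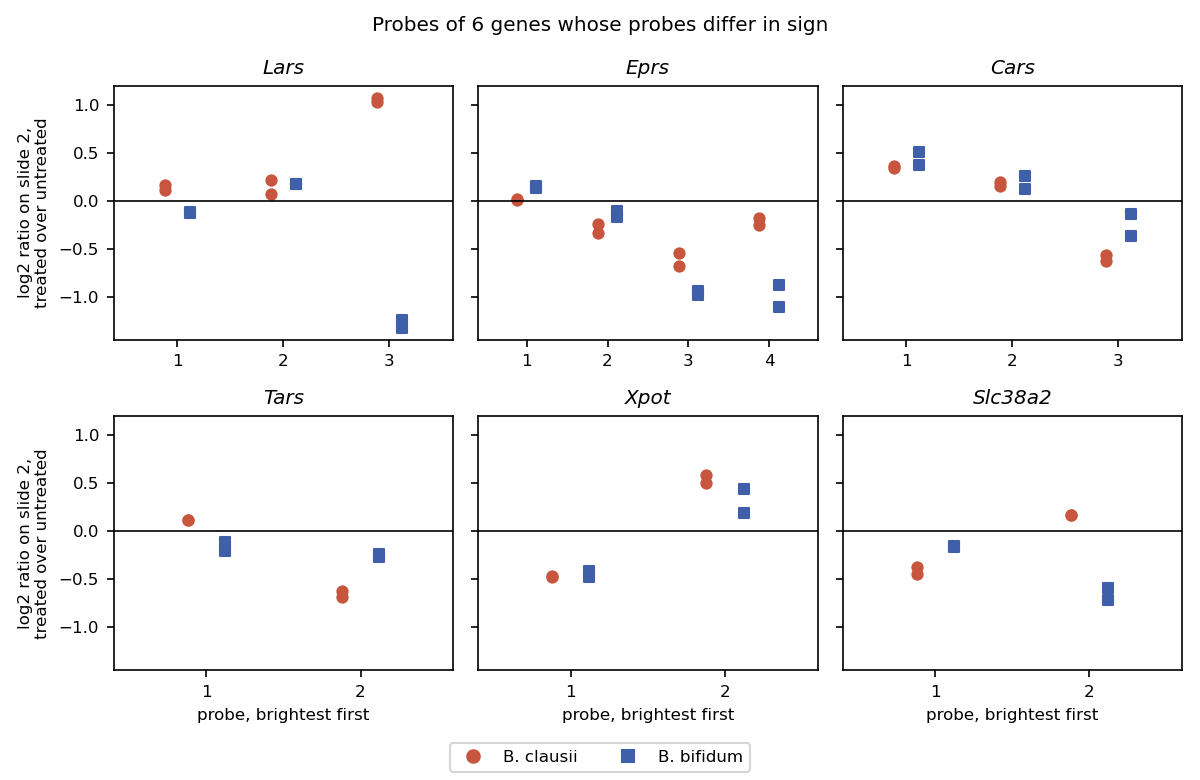
Each panel gives the log2 ratio of every kept probe of one gene on the slide 2 arrays, 2 for *B. clausii* (circles) and 2 for *B. bifidum* (squares), with probes ordered from the brightest. The dimmest probe of Lars lies near 1.08 and 1.04 with *B. clausii* and at −1.24 and −1.32 with *B. bifidum*, and the second probes of Xpot and Tars lie on the opposite side of 0 from the first with *B. clausii*.

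With *B. clausii* on slide 2, the 9 measured genes with an amino acid response element core in their promoter window had a median log2 ratio of −0.13 (range −0.82 to 0.42), against 0.013 (−0.48 to 0.96) for the 15 measured genes with a window and no match. With *B. bifidum* their median was 0.036 (−0.23 to 0.53), against 0.045 (−0.44 to 0.85). Slc7a11, with its pair of matches, was the lowest with *B. clausii* and the highest with *B. bifidum* among the 9. The rank with *B. bifidum* did not hold in every setting. With the mean of its probes Slc7a11 had 0.21 there, below Got1 at 0.41. Under median centring Slc7a11 had −0.038, below Slc1a4 at −0.003. The 3 highest with *B. clausii* that had a window, Mthfd2, Psph and Shmt2, had no match.

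Other genes of amino acid supply and its control were taken from lists, with values after loess only and none under median centring. The shares of all genes called, beside which their counts stand, were 2.17% rises and 2.62% falls with *B. clausii* over 8 arrays, 25.7% and 30.3% with *B. clausii* on slide 2, and 15.1% and 23.6% with *B. bifidum* on slide 2. Of 19 genes of the integrated stress response, 2 rose and 0 fell with *B. clausii* over 8 arrays, and 11 rose and 5 fell on slide 2. The glutathione-degrading enzyme gene Chac1 had log2 ratios of 3.11 and 3.19 on slide 2 and 0.49 on replicate 3, and Ddit4, an inhibitor of mTORC1, had 2.21 and 2.25 and no value on replicate 3. The factor gene Atf5 had −1.17, −1.24 and 0.20. With *B. bifidum*, 7 of the 19 rose and 7 fell on slide 2, and Chac1 had 0.18, 0.13 and −0.03. Of 11 other serine and one-carbon genes measured, 4 rose and 2 fell on slide 2 with *B. clausii*. The 3 farthest from 0 were the thymidylate synthase gene Tyms at 0.69 ± 0.04, the cytosolic gene Shmt1 at 0.63 ± 0.05 and the mitochondrial folate enzyme gene Aldh1l2 at −0.57 ± 0.10 (SE, n = 2), whose arrays had −0.40 and −0.73.

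Of 14 other transporters measured, 4 rose and 8 fell with *B. clausii* on slide 2, and 3 rose and 7 fell with *B. bifidum*. The lowest with *B. clausii* were the amino acid carrier genes Slc7a6 (−0.76), Slc43a2 (−0.72) and Slc36a1 (−0.66). The 8 other cytosolic synthetases had 1 rise and 4 falls with *B. clausii* and 1 and 3 with *B. bifidum*. Eef1e1, a scaffold protein of the synthetase complex, rose with *B. clausii* over 8 arrays by 0.37 ± 0.09 (SE, n = 3, limma adjusted p = 0.0495), from 0.48, 0.53 and 0.11. Among 13 other amino acid metabolism genes, Ass1, which makes the precursor of arginine, fell with *B. clausii* over 8 arrays by 0.47 ± 0.10 (SE, n = 3, limma adjusted p = 0.0443). These counts were not compared with those of the 32 genes by a test.

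Macrophage markers moved with *B. clausii* on slide 2. Of 7 macrophage markers with a probe, 6 were above background on all arrays. Their median log2 ratio was −0.77 and −0.73 on the *B. clausii* arrays of slide 2, 0.005 on replicate 3, and between −0.04 and 0.19 on the other arrays. Of 7 osteoclast markers, a cell type this line can form, 4 were above background on all arrays, with a median of −0.21 and −0.30 on the same 2 arrays and 0.006 to 0.18 on the others. Above background on all arrays were 1 of 5 neutrophil and 1 of 6 lymphocyte markers with a probe, and 0 of 6 dendritic cell, 0 of 6 fibroblast and 0 of 6 epithelial markers. The lymphocyte list had medians of 0.25 and 0.18 and the dendritic cell list 0.19 and 0.27 on the *B. clausii* arrays of slide 2, against −0.17 to 0.14 and −0.04 to 0.18 on the others. Ccr7, Clec9a and Siglech (dendritic cells) and Epcam and Krt19 (epithelium) were above background on no array. Whether these marker values have a part in the ratios of the amino acid genes was not tested.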

How the data were processed

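RNA of treated (Cy5) and untreated (Cy3) cells was measured on 8 Agilent arrays. The deposited scanner files hold spot brightness as linear intensity and a log10 ratio of Cy5 over Cy3, per the file headers from Feature Extraction version 10.7.3.1, whereas version 10.5.1.1 stands in the submitters' processing notes. The authors' deposited value table equalled that log10 ratio to within 0.005. Its array medians were 0, and 18.0% to 48.4% of its values were exactly 0.

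Median spot signals, used in place of the planned mean signals, were processed in limma (version 3.58.1, with R 4.3.3), corrected by normexp (offset 50) and normalized within arrays by loess with control spots at weight 0. Outlier spots were removed. Log2 ratios were computed from these deposited intensities. Probes were kept if 2 or more arrays had them well above background in a channel. Names came from RefSeq (GRCm38.p6) for 29169 of 43379 probe features. The brightest probe stood for a gene, and 295 of 15203 genes lacked a value on some array.

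A mean per strain was fitted over 8 arrays (lmFit, eBayes), tested against 0 and between strains, with Benjamini-Hochberg adjustment over all genes (threshold 0.05). Cy3 brightness was compared between slides after quantile normalization. The fit was tested on simulated data that held no slide effect and no array of low quality, so that test covers neither. Alternatives covered background correction, centring, the deposited values, filters, probes, slide, replicate number and each array left out. Scaling alternatives within slide 2 were added after the data were seen. Values on every array are given for genes past the threshold, for the 5 highest and 5 lowest on slide 2 per strain and for at least 2 genes per role, and genes named from other lists are among the 3 farthest from 0 in their list, with Eef1e1 and Ass1 also named as calls over 8 arrays. The genes and lists were chosen with earlier results of these data known. Arrays number 2 to 3 per strain, which limits the precision.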

Additional observations from a re-analysis of the deposited data

Results flagged for a closer look

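In the untreated channel over all 8 arrays, 14 of the 32 genes had 1 array whose gap to its nearest neighbour took a share of the whole range above the critical value for 8 arrays. By chance about 1 in 20 groups would do so, if the 8 values of a gene formed a uniform group. Here they came from both slides, between which some of these genes differed in brightness, so that rate may not hold. The share of all genes with such an array is not given here. Whether 14 of 32 is more than among other genes therefore cannot be told. For 12 of the 14 genes that array was *B. clausii* replicate 3, which had the fewest probes above background and the most variable repeated spots. The shares were 0.755 for Eprs, 0.661 for Iars, 0.568 for Lars, 0.709 for Mars1, 0.856 for Sars and 0.815 for Tars among the synthetases. They were 0.542 for Phgdh, 0.593 for Got1, 0.53 for Cth, 0.603 for Slc1a5, 0.582 for Eif4ebp1 and 0.721 for Xpot among the others. Sars, for example, had a log2 brightness of 12.5 on that array and 14.2 to 14.4 on the other 7.

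For Asns (0.594) and Mthfd2 (0.663) the array was *B. clausii* replicate 2. Asns had a log2 brightness of 10.95 there, against 13.33 to 14.95 on the others, while its ratio of −0.15 was close to that of replicate 1 (−0.10). Mthfd2 had 8.18 there against 8.87 to 9.23, with a ratio of 1.02 against 0.91 on replicate 1.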

How the results depend on the processing

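Over 8 arrays no gene reversed a call in the alternatives run, but the counts moved. For *B. clausii* (2 rises, 1 fall) the counts were 0 and 0 with median centring, from the authors' deposited value table and with only its own arrays. They were also 0 on slide 1 alone, where its single array took the spread of the 2 *L. acidophilus* arrays, so that this count says nothing about stability. The falls were also 0 without background correction and with the mean of all probes. With the slide as a block they were 8 and 4, and on slide 2 alone 14 and 11. The slide block gave 1 rise for *B. bifidum* and 1 between the strains, and slide 2 alone gave 10 and 7 for *B. bifidum* and 6 and 6 between the strains. Leaving out an array gave 0 to 9 rises and 0 to 7 falls for *B. clausii*, 0 to 3 and 0 to 1 for *B. bifidum*, and 0 to 4 and 0 to 1 between the strains. Medians of the 32 genes with median centring were 0.39 for *L. acidophilus*, −0.44 for *B. clausii*, −0.63 for *B. bifidum* and 0.15 between the strains, where all genes had 0.14, −0.22, −0.36 and 0.078. The median for *B. clausii* was 0.14 from the authors' deposited value table and 0.061 on slide 2, and 0.0070 to 0.061 when an array was left out. The median for *B. bifidum* was −0.042 on slide 1, and that for *L. acidophilus* 0.020 with the slide block. As *L. acidophilus* had arrays on slide 1 only, that block took its slide effect from the other strains. Higher genes in the untreated channel (8) numbered 2 with median centring and 4 to 14 when an array was left out, with no shares of all genes beside them.

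Whether the replicate numbers pair the samples cannot be told from the correlations, since slide and number are mixed. Arrays with the same number correlated at −0.09 to −0.06 between *L. acidophilus* and the other strains, where every such pair lay across slides. They correlated at 0.297 to 0.46 where they shared a slide. These values are separate from the correlations over bright genes given above, which were 0.463 to 0.547 for the same pairs. Of the 8 arrays, 5 correlated best with their own number in another strain, all of them *B. clausii* or *B. bifidum* arrays. With the replicate number as a block, 8 genes rose and 4 fell for *B. clausii*, 2 rose and 1 fell for *B. bifidum*, and the median for *L. acidophilus* was −0.065. Of all 15203 genes, 1810 rose and 2519 fell for *B. clausii* in that fit, and 618 rose and 1647 fell for *B. bifidum*.

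Within slide 2, median centring gave 0 rises for *B. clausii*, 0 rises and 21 falls for *B. bifidum*, and 0 of each between the strains. The authors' deposited value table gave 8 and 4, 2 and 0, and 0 and 0, and no background correction gave 3 genes lower between the strains. Calls that changed sign with median centring had these log2 ratios for *B. clausii*: Cars −0.33, Lars −0.49, Psat1 −0.12, Phgdh −0.36, Shmt2 −0.017, Got1 −0.37, Slc7a1 −0.52, Slc3a2 −0.14, Slc1a5 −0.48 and Eif4ebp1 −0.36. For *B. bifidum* they were Cars −0.45, Eprs −0.78, Psat1 −0.56, Mthfd2 −0.27, Got1 −0.48, Slc7a11 −0.038, Slc7a5 −0.44, Slc3a2 −0.12, Slc1a5 −0.72 and Eif4ebp1 −0.81. With *B. bifidum*, Aars (−0.95), Yars (−0.68), Phgdh (−0.96), Psph (−0.79), Shmt2 (−0.81) and Gpt2 (−0.65) were above 0 without a call and fell under median centring. Between the strains Aars had 0.12 and Slc38a2 0.079. From the authors' deposited value table Aldh18a1 had 0.086 for *B. clausii*. With the mean of all probes, Cars had −0.020 and Xpot 0.036 for *B. clausii*, where Eprs (−0.27) and Tars (−0.27), above 0 without a call before, fell. Calls that changed sign with that mean were also Eprs −0.49 for *B. bifidum*, and Tars −0.062 and Slc38a2 0.29 between the strains. The cause was not tested. Only 2 arrays per strain on slide 2 and 1 on slide 1 limit each of these values.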

Other observations

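Among 17 mitochondrial synthetase genes, 6 rose and 5 fell with *B. clausii* on slide 2 (25.7% and 30.3% of all genes), and 4 rose and 4 fell with *B. bifidum* (15.1% and 23.6%). Lars2, which charges leucine tRNA in mitochondria, had the widest split by slide. Its log2 ratios on slide 1 were −1.18 and −1.21 with *L. acidophilus*, −1.15 with *B. clausii* and −1.58 with *B. bifidum*. On slide 2 they were 1.49 and 1.38 with *B. clausii* and 1.09 and 1.54 with *B. bifidum*. All 4 arrays of each slide had the same sign, whatever the strain. Yars2, for tyrosine, had 0.82 and 0.86 with *B. clausii* on slide 2 and −0.12 on replicate 3, and Vars2, for valine, had −0.82 and −0.57 with *B. bifidum* on slide 2 and 0.04 on replicate 3.

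Bcat1, which starts the breakdown of branched-chain amino acids, and Tyms had opposite directions in the strains on slide 2 after loess. Their values under median centring are not given here. All genes had medians of −0.30 (*B. clausii*) and −0.42 (*B. bifidum*) there under that centring. Bcat1 had log2 ratios of 0.45 and 0.57 with *B. clausii* and −0.36 and −0.40 with *B. bifidum*, a difference of 0.89 ± 0.07 (SE, n = 2 per strain, limma adjusted p = 0.00151). Tyms had 0.69 and 0.69 against −0.33 and −0.34, a difference of 1.02 ± 0.06 (SE, n = 2 per strain, limma adjusted p = 0.001). On slide 1 both genes lay between −0.16 and 0.03 on all arrays.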
